A study of Mus musculus with 40 samples.

Results

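The 5 genes of the type 2 helper T cell (Th2) pathway were followed across helper T cells with and without Malt1: the cytokine genes Il4, Il13 and Il5, the transcription factor gene Gata3, and Il4ra, which encodes a chain of the interleukin 4 receptor. They were taken as every probe that the platform's gene table pairs with these symbols, which gave 5 probes, 1 for each of the 5 genes, of 19057 genes named on the array. Messenger RNA had been measured with Illumina MouseWG-6 v2 bead arrays in T cells of C57BL6 mice aged 8 to 12 weeks. The 40 arrays form 8 groups of 5, namely Malt1-/- Th17 cells and WT Th17 cells at 72 h, the same 2 genotypes as Th17 cells at 48 h, Malt1-/- Th1 cells and WT Th1 cells at 72 h, and the same 2 genotypes as Th1 cells at 48 h. All groups started from naive cells of lymph nodes and spleens that carried CD4 and CD62L, so the groups differ in genotype, in the lineage they were induced to take and in time after induction. The labels do not say which stretch of Malt1 is missing, how the cultures were stimulated, or whether the 5 arrays of a group came from separate mice. The p-values therefore measure the spread between these arrays, which may be technical in part.

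Helper T cells take on different programmes, each with its own cytokines. Th1 cells are known for interferon gamma and the transcription factor T-bet, Th17 cells for interleukin 17, and Th2 cells for interleukins 4, 5 and 13 under the control of GATA3. Interleukin 4 acts through a receptor that contains the Il4ra chain and through the transcription factor STAT6, which raises Gata3, and GATA3 in turn acts on the Il4, Il13 and Il5 genes, which lie in 1 cluster on mouse chromosome 11. MALT1 is a scaffold and protease that carries signals of the antigen receptor to NF-kappaB.

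The promoters of the 4 genes at the centre of this circuit are shown because words bound by its own factors can be read in them. They are RefSeq windows of 300 bases on GRCm38.p6, written 5′ to 3′, and capitals mark GATA words (GATA with A or T before it and A or G after it, on either strand) and, in Il4, a STAT6 word (TTC and GAA with any 4 bases between them).
Il4 promoter, chr11:53618616-53618915, minus strand: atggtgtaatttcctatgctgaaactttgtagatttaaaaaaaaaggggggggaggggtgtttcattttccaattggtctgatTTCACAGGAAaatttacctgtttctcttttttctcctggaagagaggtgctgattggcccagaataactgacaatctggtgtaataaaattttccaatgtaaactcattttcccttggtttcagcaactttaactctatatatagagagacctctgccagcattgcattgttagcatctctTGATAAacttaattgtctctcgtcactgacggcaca
Il13 promoter, chr11:53634653-53634952, minus strand: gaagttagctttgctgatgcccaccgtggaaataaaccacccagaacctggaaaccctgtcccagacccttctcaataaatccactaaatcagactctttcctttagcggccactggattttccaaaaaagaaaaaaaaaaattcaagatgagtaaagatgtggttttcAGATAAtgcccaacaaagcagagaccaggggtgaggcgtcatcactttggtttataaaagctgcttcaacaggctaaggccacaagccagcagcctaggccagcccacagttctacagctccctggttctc
Il5 promoter, chr11:53720544-53720843, plus strand: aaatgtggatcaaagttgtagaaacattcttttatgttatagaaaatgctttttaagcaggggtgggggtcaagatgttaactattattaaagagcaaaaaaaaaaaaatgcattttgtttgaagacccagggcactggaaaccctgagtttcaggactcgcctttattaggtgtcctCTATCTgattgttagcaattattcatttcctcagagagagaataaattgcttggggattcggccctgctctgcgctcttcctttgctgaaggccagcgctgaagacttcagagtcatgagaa
Gata3 promoter, chr2:9878551-9878850, minus strand: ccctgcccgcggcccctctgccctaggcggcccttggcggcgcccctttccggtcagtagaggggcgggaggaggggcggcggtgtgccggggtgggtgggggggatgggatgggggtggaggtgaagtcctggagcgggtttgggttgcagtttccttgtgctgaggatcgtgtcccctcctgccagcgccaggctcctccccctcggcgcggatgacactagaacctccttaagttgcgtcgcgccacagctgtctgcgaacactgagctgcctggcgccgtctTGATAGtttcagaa
Each of the 4 windows held 1 GATA word, while 29.8% of 32841 promoter windows of that length held at least 1, so this word does not set them apart by itself. Counted in bases from the start site, it lies past the start in Il4 (14) and Gata3 (36). It lies before the start in Il13 (-81) and Il5 (-72). The Il4 window was the only one of the 4 with a STAT6 word, which 6.95% of all windows held. NFAT words (GGAAA, on either strand), read by a factor that follows calcium signals of the antigen receptor, numbered 5 in Il4, 4 in Il13, 2 in Il5 and 2 in Gata3, against at least 1 in 61.4% of all windows, and 1 of those in Il4 shares letters with the STAT6 word. None of the 4 windows held the T-box word GGTGTGA, found in 3.98% of all windows. RefSeq gives Il4 another start as well, whose window is not shown and held 1 GATA word, 1 NFAT word and 0 STAT6 words. A match is a run of letters and was not tested for binding.

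Signals are given as log2 of the background-corrected and quantile-normalised intensity, so that a difference of 1 is a doubling. Arrays detected 14640 to 17409 of 45281 probes each. Malt1 itself was lower in Malt1-/- cells by a log2 difference of -4.75 in Th17 cells at 72 h, -3.85 in Th17 cells at 48 h, -4.92 in Th1 cells at 72 h and -4.10 in Th1 cells at 48 h, with all 5 Malt1-/- arrays below all 5 WT arrays each time. These values are of the brighter Malt1 probe. Another Malt1 probe stayed near the background, with means of 4.75 to 4.99 in the Malt1-/- groups and 4.77 to 5.02 in the WT groups. A probe outside the deleted stretch would not check the genotype, and the place of these probes is not known here. Over all kept probes, 10 arrays lay nearer to the mean of another group than to the rest of their own, so the effects of genotype are also given without them. These were replicates 2 and 4 of Malt1-/- Th17 and 2, 4 and 5 of WT Th17 at 72 h, replicate 5 of WT Th17 at 48 h, replicate 2 of Malt1-/- Th1 and 4 of WT Th1 at 72 h, and replicate 2 of Malt1-/- Th1 and 1 of WT Th1 at 48 h. They were picked from these same signals, so leaving them out can narrow the spread, and it leaves fewer arrays. The T cell markers were detected in every group, but in Th17 cells at 72 h 1 of the 6 tested, Cd4, was lower without Malt1 by limma (-0.89 ± 0.24, adjusted p = 0.0303). Cd8b1, the only CD8 T cell marker tested, was also lower there (-0.65 ± 0.16, adjusted p = 0.0198). The other listed CD8 marker, Cd8a, was detected on no Th17 array of either genotype at 72 h and did not pass the detection filter. Whether the share of CD8 T cells changed was not tested. The Th1 markers summed to 8170 or more on each Th1 array (linear normalised signal) and to 1089 or less on each Th17 array. The sum hides a split, since 3 of the 4 were called lower and 1 was called higher in Th17 cells, in both genotypes at both times. Over all genes 7.26% to 9.2% were called lower in these tests. The Th17 markers summed to 822 or less on each Th1 array. In Th17 cells these last sums ran from 3869 to 7928 in Malt1-/- cells and 15626 to 26676 in WT cells at 72 h, and from 5382 to 16151 in Malt1-/- cells and 24396 to 27127 in WT cells at 48 h. The sums of the genotypes did not overlap, and 2 of 3 tested Th17 markers were called lower at each time. Over all genes 1.53% were called lower in Th17 cells at 72 h and 2.97% at 48 h. The WT Th1 array of replicate 4 at 48 h held that highest Th1 value of the Th17 markers.

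Il4, the defining Th2 cytokine, was far higher without Malt1 in cells induced to become Th1, and did not pass the test in Th17 cells. At 72 h the 5 Malt1-/- Th1 arrays read 11.65, 10.54, 11.57, 12.47 and 12.41, against 9.21, 7.71, 7.58, 6.65 and 7.69 on the WT Th1 arrays. The groups did not overlap, and the lowest Malt1-/- array stood above the highest WT array. The difference was 3.96 ± 0.42 (log2, SE), or 15.6-fold, with an adjusted p of 2.6e-08 by limma, and without background correction it was 3.29, or 9.76-fold. In these cells at 72 h 3 of the 5 genes rose, Il4, Gata3 and Il13, while 1.85% of the 10730 genes tested were called higher, and 1.71% had all Malt1-/- arrays above all WT arrays. The median difference of the 5 genes was 1.29, against -0.000362 over all genes. In bulk RNA, more cells that express a gene and more RNA in each cell cannot be told apart.

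At 48 h Il4 was already higher in Malt1-/- Th1 cells, where the arrays read 8.55, 10.52, 8.78, 10.03 and 9.52, against 6.31, 8.34, 8.58, 7.55 and 6.92 in WT Th1 cells. The ranges overlapped only in that the highest WT array stood just above the lowest Malt1-/- array. The difference was 1.94 ± 0.42, or 3.83-fold (adjusted p = 0.00897, limma), and it was 1.37 (adjusted p = 0.0302) without the 10 arrays that stood apart. With only the 10 arrays of this comparison in the fit the call was lost (adjusted p = 0.0671). At 48 h 2 of the 5 genes rose, Il4 and Gata3, while 0.783% of all genes tested were called higher.

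In Th17 cells Il4 stayed near the low end of its scale in both genotypes. At 72 h Malt1-/- Th17 arrays read 6.40, 6.40, 6.44, 5.52 and 7.02, against 5.95, 6.98, 6.18, 5.98 and 5.84 in WT Th17 cells. At 48 h they read 5.70, 5.83, 6.04, 6.56 and 6.09, against 6.24, 6.77, 6.04, 6.12 and 5.45 in WT. The groups overlapped at both times, with differences of 0.17 (95% confidence interval -0.68 to 1.02) and -0.08 (-0.93 to 0.77). The probe was detected on all 40 arrays, so these are measured low levels. The effect of genotype itself differed between the lineages at 72 h, by -3.79 ± 0.59 for Th17 minus Th1 (adjusted p = 0.000485, limma). At 48 h that difference was -2.02 ± 0.59 and did not pass (adjusted p = 0.181), nor did that of any of the other 4 genes, while 0.14% of all genes were called in either direction.

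**Figure D1:**
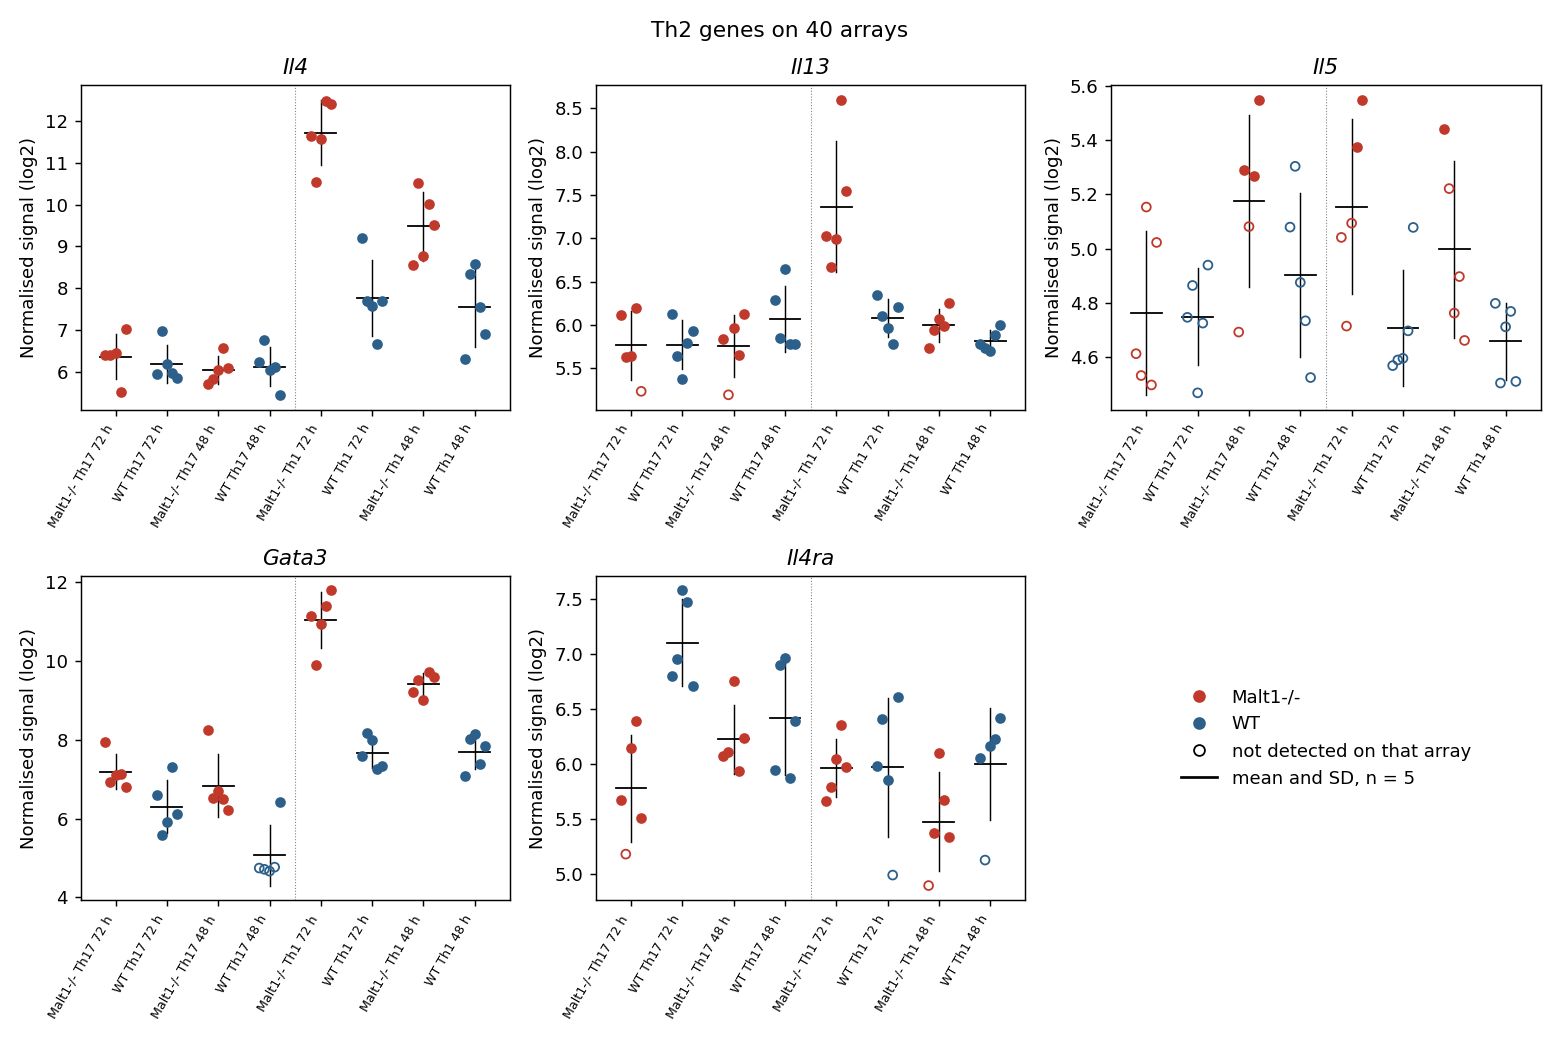
Normalised log2 signal (vertical axes) of Il4, Il13, Il5, Gata3 and Il4ra on each of 40 arrays in 8 groups (horizontal axes); filled points were detected and open points were not, and black bars give the mean and SD of 5 arrays. Il4 and Gata3 stand highest in Malt1-/- Th1 cells at 72 h, Il13 leaves its low range in that group alone, and Il5 was detected on 6 arrays.

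Gata3, the transcription factor that defines Th2 cells, followed Il4 in Th1 cells. At 72 h Malt1-/- Th1 arrays read 11.14, 9.90, 10.93, 11.41 and 11.79, against 7.59, 8.17, 8.00, 7.26 and 7.34 in WT Th1 cells. At 48 h they read 9.21, 9.51, 9.02, 9.72 and 9.60, against 7.09, 8.03, 8.15, 7.39 and 7.85 in WT. All Malt1-/- arrays stood above all WT arrays at both times, as did 1.71% of genes at 72 h and 2.92% at 48 h. The difference was 3.36 ± 0.36 at 72 h, or 10.3-fold (adjusted p = 3.2e-08), and 1.71 ± 0.36 at 48 h, or 3.27-fold (adjusted p = 0.00685, limma). Without the 10 arrays that stood apart these were 3.54 and 1.53, both still called. Without background correction the difference at 72 h was 2.73, or 6.62-fold, and still called.

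In Th17 cells Gata3 was also higher without Malt1 at 48 h, in a range where the WT probe was mostly not detected. Malt1-/- Th17 arrays read 8.25, 6.53, 6.70, 6.49 and 6.22, against 4.74, 4.71, 4.66, 4.77 and 6.43 in WT Th17 cells. It was detected on 5 of 5 Malt1-/- arrays and on 1 of 5 WT arrays, replicate 5, which lay within the Malt1-/- range. The difference was 1.77 ± 0.36 (adjusted p = 0.00349, limma). It was 1.42 (adjusted p = 0.0168) without Malt1-/- replicate 1, the highest array, and 2.11 (adjusted p = 0.000268) without WT replicate 5. Without background correction it was 0.65 and was no longer called (adjusted p = 0.0609). Gata3 was the only 1 of the 5 genes to rise there, while 3.41% of all genes were called higher.

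At 72 h Gata3 read 7.95, 6.93, 7.11, 7.14 and 6.81 in Malt1-/- Th17 cells, against 6.60, 5.58, 5.91, 7.31 and 6.12 in WT Th17 cells. The groups overlapped through WT replicate 4, and the difference of 0.89 ± 0.36 did not pass (adjusted p = 0.139). The effect of genotype on Gata3 differed between lineages at 72 h, by -2.48 ± 0.51 for Th17 minus Th1 (adjusted p = 0.00838, limma). Together with Il4 this made 2 of the 5 genes with a lower effect in Th17 cells at 72 h, while 0.382% of all genes were called lower in that test. At 48 h the difference between lineages was 0.06 ± 0.51 (95% confidence interval -0.97 to 1.09).

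**Figure D2:**
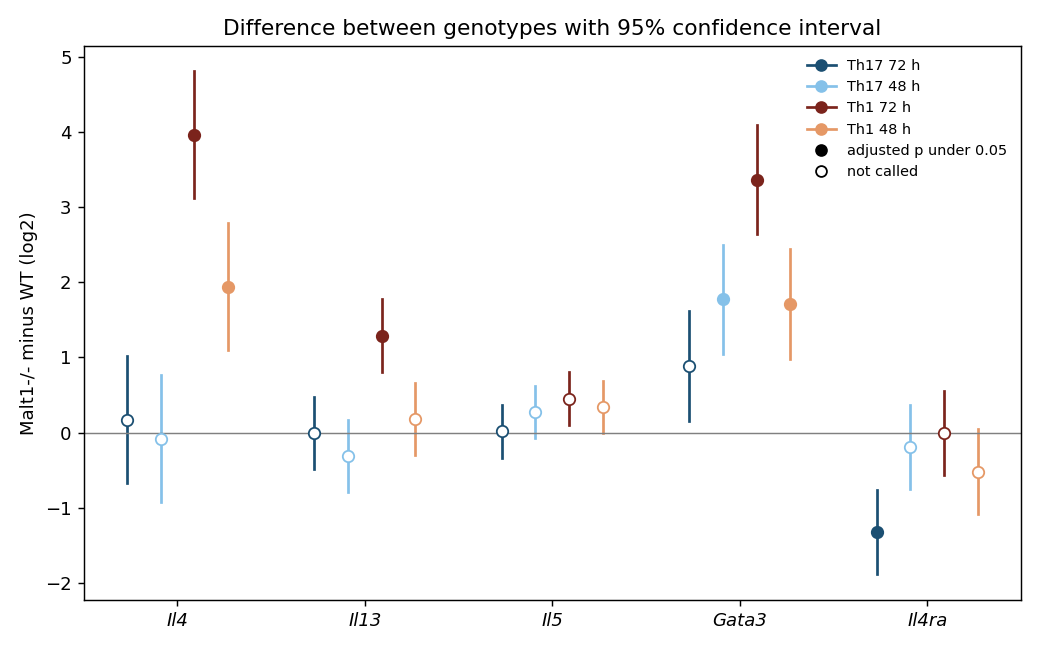
Malt1-/- minus WT difference on the log2 scale (vertical axis) with 95% confidence intervals for each of the 5 genes (horizontal axis) in Th17 and Th1 cells at 72 h and 48 h; filled points have an adjusted p under 0.05. In Th1 cells at 72 h Il4 reached 3.96, Gata3 3.36 and Il13 1.29, and Il4ra fell by 1.32 in Th17 cells at 72 h.

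Il13, the cytokine gene next to Il4, rose in Malt1-/- Th1 cells at 72 h and passed no other genotype test. There it read 7.03, 6.67, 6.99, 8.60 and 7.55, against 6.34, 6.10, 5.96, 5.77 and 6.21 in WT Th1 cells. All Malt1-/- arrays stood above all WT arrays, with replicate 4 the highest. The difference was 1.29 ± 0.24, or 2.45-fold (adjusted p = 0.000751, limma), and it was 1.39 without the 10 arrays that stood apart. Without background correction it was 0.61, or 1.52-fold (adjusted p = 0.00107). With only the 10 arrays compared in the fit it was not called (adjusted p = 0.0913). At 48 h the Th1 arrays had medians of 5.99 in Malt1-/- cells and 5.78 in WT cells and overlapped, a difference of 0.18 (adjusted p = 0.85). In Th17 cells all values lay between 5.19 and 6.64, with differences of -0.01 at 72 h and -0.31 at 48 h. The effect at 72 h was lower in Th17 than in Th1 cells by 1.30 ± 0.34, just short of the threshold (adjusted p = 0.0547).

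Il5, the eosinophil growth factor of the cluster, was at the edge of detection. Its probe was detected on 6 of 40 arrays, 2 of Malt1-/- Th1 cells at 72 h, 1 of Malt1-/- Th1 cells at 48 h and 3 of Malt1-/- Th17 cells at 48 h, and on no WT array. It passed the filter through those arrays alone. In Th1 cells at 72 h it read 5.04, 4.71, 5.09, 5.37 and 5.55 in Malt1-/- arrays, against 4.57, 4.59, 4.59, 4.70 and 5.08 in WT arrays. The ranges overlapped, and the difference of 0.45 ± 0.17 did not pass (adjusted p = 0.174). The other 3 differences were 0.34 in Th1 cells at 48 h, 0.27 in Th17 cells at 48 h and 0.01 in Th17 cells at 72 h. A change at this level was not measurable with certainty on these arrays.

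Il4ra, the receptor chain that binds interleukin 4, moved in the other direction and in the other lineage. At 72 h it read 5.68, 5.18, 6.15, 6.39 and 5.51 in Malt1-/- Th17 cells, against 6.80, 6.96, 7.58, 7.47 and 6.71 in WT Th17 cells. The groups did not overlap, as for 0.932% of genes in that direction, and replicate 2 was not detected in Malt1-/- cells. The difference was -1.32 ± 0.28, 2.50-fold lower (adjusted p = 0.00496, limma), and it was the only 1 of the 5 genes called lower, while 1.53% of all genes were. Without the 10 arrays that stood apart the difference was -1.41 ± 0.38. That fit lacked replicates 2 and 4 of these Malt1-/- cells and 2, 4 and 5 of the WT cells. Without background correction the difference was -0.53, 1.44-fold lower (adjusted p = 0.00197). The T cell markers had a median difference of -0.46 in this comparison, against 0.04 over all genes, with 4 of 6 at an unadjusted p under 0.05, and the Th17 markers were lower as given above. Their part in the fall of Il4ra was not tested. The deposited signal of the probe lay between 147 and 389 on all arrays, close to the array medians of 127 to 193, so it is a dim probe.

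No other genotype test of Il4ra passed. In Th17 cells at 48 h it read 6.08, 6.11, 6.75, 5.94 and 6.24 without Malt1, against 5.95, 6.90, 6.96, 5.88 and 6.39 in WT (difference -0.19). In Th1 cells at 72 h it read 5.66, 5.79, 6.04, 6.36 and 5.97, against 5.98, 6.41, 5.86, 4.99 and 6.61 in WT (difference -0.01, 95% confidence interval -0.57 to 0.56). In Th1 cells at 48 h it read 4.90, 5.38, 6.11, 5.67 and 5.34, against 6.06, 5.13, 6.16, 6.23 and 6.42 in WT (difference -0.52, adjusted p = 0.461). These groups overlapped. The effect at 72 h did not differ between lineages beyond the threshold (-1.32 ± 0.39, adjusted p = 0.122).

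Set by lineage, Il4 and Gata3 were lower in Th17 than in Th1 cells in both genotypes, and at 72 h the gap was wider without Malt1, which is the difference between lineages tested above. In Malt1-/- cells Il4 differed by -5.37 at 72 h and -3.43 at 48 h, and in WT cells by -1.58 at 72 h (adjusted p = 0.00582) and -1.42 at 48 h (adjusted p = 0.0148). Gata3 differed by -3.85 at 72 h and -2.58 at 48 h in Malt1-/- cells, and by -1.37 at 72 h and -2.64 at 48 h in WT cells. The last value is set against a group in which 1 of 5 arrays detected Gata3, so its size is uncertain. The WT call of Il4 at 48 h was lost without WT Th1 replicate 2 or replicate 3 at 48 h (adjusted p = 0.0515 and 0.0648), without background correction (-0.70, adjusted p = 0.0901) and in the authors' deposited table (adjusted p = 0.0919). Without background correction the WT differences were also smaller for Il4 at 72 h (-0.81) and for Gata3 at 72 h (-0.65) and 48 h (-1.09), all still called. Il13 was lower in Th17 cells by 1.60 in Malt1-/- cells at 72 h alone among the 4 tests, and by 0.70 there without background correction. Il4ra was the reverse, higher in WT Th17 than in WT Th1 cells at 72 h by 1.13 (adjusted p = 0.00312, limma). The groups did not overlap, as for 4.2% of genes. Without the arrays that stood apart the difference was 0.97 and not called (adjusted p = 0.0603). In Malt1-/- cells at 48 h Il4ra was higher in Th17 cells by 0.75. It was not called there (adjusted p = 0.0564), but was called under 5 of 12 other settings. The share of all genes called lower in Th17 cells was 9.16% at 72 h and 8.72% at 48 h in Malt1-/- cells, and 9.2% at 72 h and 7.26% at 48 h in WT cells, against 3, 2, 2 and 2 of the 5 genes. Higher calls covered 9.66% of genes in WT cells at 72 h, where Il4ra was the 1 of 5.

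Over time, 3 of the 5 genes rose between 48 h and 72 h in Malt1-/- Th1 cells and none passed in WT Th1 cells, where 0 had an unadjusted p under 0.05. In Malt1-/- Th1 cells the differences, 72 h minus 48 h, were 2.25 ± 0.42 for Il4 (adjusted p = 0.000975), 1.62 ± 0.36 for Gata3 (adjusted p = 0.00557) and 1.37 ± 0.24 for Il13 (adjusted p = 0.000402), all by limma and without overlap. In these cells 4.15% of all genes were called higher at 72 h and 4.54% had all 72 h arrays above all 48 h arrays. In WT Th1 cells they were 0.23 for Il4, -0.03 for Gata3 and 0.26 for Il13, while 5.57% of all genes were called higher. The effect of genotype did not differ between times past the threshold for any of the 5 genes in either lineage, while 0.0746% of all genes were called in Th1 cells, 0.0559% as higher at 72 h, and 0.121% in Th17 cells. At an unadjusted p under 0.05 there were 3 in Th1 cells and 1 in Th17 cells. In Th1 cells the difference, 72 h minus 48 h, was 2.02 ± 0.59 for Il4 (adjusted p = 0.328), 1.65 ± 0.51 for Gata3 (adjusted p = 0.416) and 1.11 ± 0.34 for Il13 (adjusted p = 0.378). Without the 10 arrays that stood apart it passed for Il4 (2.61, adjusted p = 0.0138) and Gata3 (2.01, adjusted p = 0.043). Arrays nearer to another group were picked from these same signals, and leaving them out can narrow the spread, so these calls add no support. In WT Th17 cells Gata3 rose by 1.24 between the times (adjusted p = 0.0221), the 1 of 5 called, while 4.97% of all genes were called higher. That call was lost without any 1 of 6 single arrays, and without background correction (0.41, adjusted p = 0.208), where Il4ra was called in its place (0.30, adjusted p = 0.0409). In Malt1-/- Th17 cells none of the 5 passed, with 1 at an unadjusted p under 0.05, where 0.578% of all genes were called higher.

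Ordered by mean, Il4 was highest in Malt1-/- Th1 cells at 72 h (11.73 ± 0.79, SD, n = 5), then in Malt1-/- Th1 cells at 48 h (9.48 ± 0.83), then in WT Th1 cells at 72 h (7.77 ± 0.92) and at 48 h (7.54 ± 0.95). The 4 Th17 groups followed between 6.36 and 6.04. The first of these groups was separate from the next, and from there on each group overlapped the one after it. Gata3 had the same first groups, at 11.03 ± 0.71 and 9.41 ± 0.29, both separate from the group after them, and its lowest was WT Th17 at 48 h (5.06 ± 0.76). Il13 was separate in its highest group only, Malt1-/- Th1 cells at 72 h, at 7.37 ± 0.76. Il4ra was highest in WT Th17 cells at 72 h (7.10 ± 0.40), and all its neighbours in the order overlapped.

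Il4 and Gata3 followed each other mainly between groups. Over the 40 arrays their Pearson correlation was 0.873, and over the residuals from the means of the 8 groups, pooled, it was 0.136. Il4 and Il13 gave 0.704 and 0.197, and Il13 and Gata3 gave 0.612 and 0.246. Gata3 and Il4ra correlated at -0.405. The arrays share groups, so these values are descriptions.

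**Figure D3:**
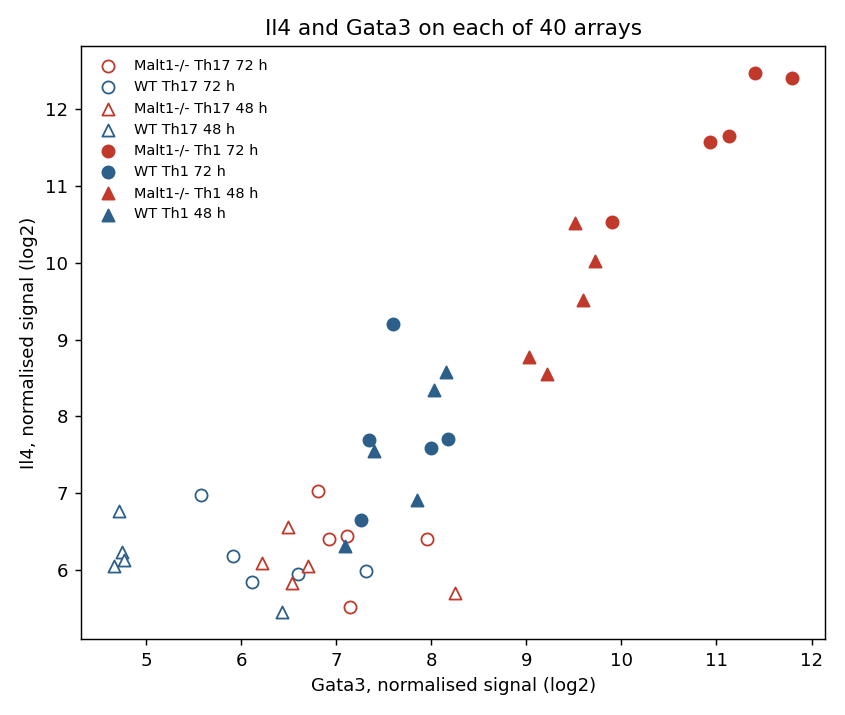
Il4 (vertical axis) against Gata3 (horizontal axis), both as normalised log2 signal, on each of 40 arrays; red is Malt1-/-, blue is WT, filled is Th1, open is Th17, circles are 72 h and triangles 48 h. The Malt1-/- Th1 arrays at 72 h form the upper right, with 10.54 as their lowest Il4 value, and the Th17 arrays lie along the bottom.

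The genes most like Il4 over the 40 arrays were Osr2 (Pearson correlation 0.973), Slc13a3 (0.926), Scin (0.914), Myh10 (0.893) and Riok1 (0.892). Osr2, a zinc finger transcription factor gene, was also alike within groups, with 0.716 over the residuals. It was higher in Malt1-/- Th1 cells by 4.43 ± 0.38 at 72 h (adjusted p = 2.9e-10) and by 2.15 ± 0.38 at 48 h (adjusted p = 0.000968, limma). The genes most like Gata3 were Scin (0.906), Osr2 (0.885), Ptgir (0.878), Tnfsf4 (0.875) and Myh10 (0.873). Scin, which encodes the actin-severing protein scinderin, rose by 3.55 ± 0.33 in Malt1-/- Th1 cells at 72 h and differed by 0.05 at 48 h.

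The genes around the cytokine cluster were laid out in their order on chromosome 11, from RefSeq. Of 21 protein-coding genes in the stretch, all on the array, 14 passed the detection filter and 5 were called higher in Malt1-/- Th1 cells at 72 h, while none was called lower. Over all genes 1.85% were called higher there. Beside Il4 and Il13 these were Kif3a, a kinesin motor gene next to Il4 (1.46 ± 0.26, adjusted p = 0.000344), Septin8, a cytoskeletal gene beside it (0.96 ± 0.28, adjusted p = 0.0483), and Csf2, which encodes the cytokine GM-CSF (3.44 ± 0.50, 10.9-fold, adjusted p = 1.42e-05, limma). Rad50, the DNA repair gene between Il13 and Il5, differed by 0.31 and did not pass (adjusted p = 0.165). The 9 uncalled genes ran from -1.17 for Acsl6, an acyl-CoA synthetase gene next to Il3 (adjusted p = 0.0515), to 1.07 for P4ha2, with 0.30 for the cytokine gene Il3 and 0.44 for Irf1. At 48 h Acsl6 was called lower in Malt1-/- Th1 cells (-2.14 ± 0.34, adjusted p = 0.000143, limma), detected on 2 of 5 arrays against 5 of 5, while 0.606% of all genes were called lower. Il3 differed by -1.94 at 48 h (adjusted p = 0.0725). In Th17 cells at 48 h Irf1 rose by 0.88 ± 0.22 (adjusted p = 0.0147). The effect on Kif3a and Csf2 was lower in Th17 cells at 72 h, by 1.93 ± 0.36 (adjusted p = 0.00396) and 3.43 ± 0.70 (adjusted p = 0.00838). The stretch was chosen with these values known, so the count is a description.

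**Figure D4:**
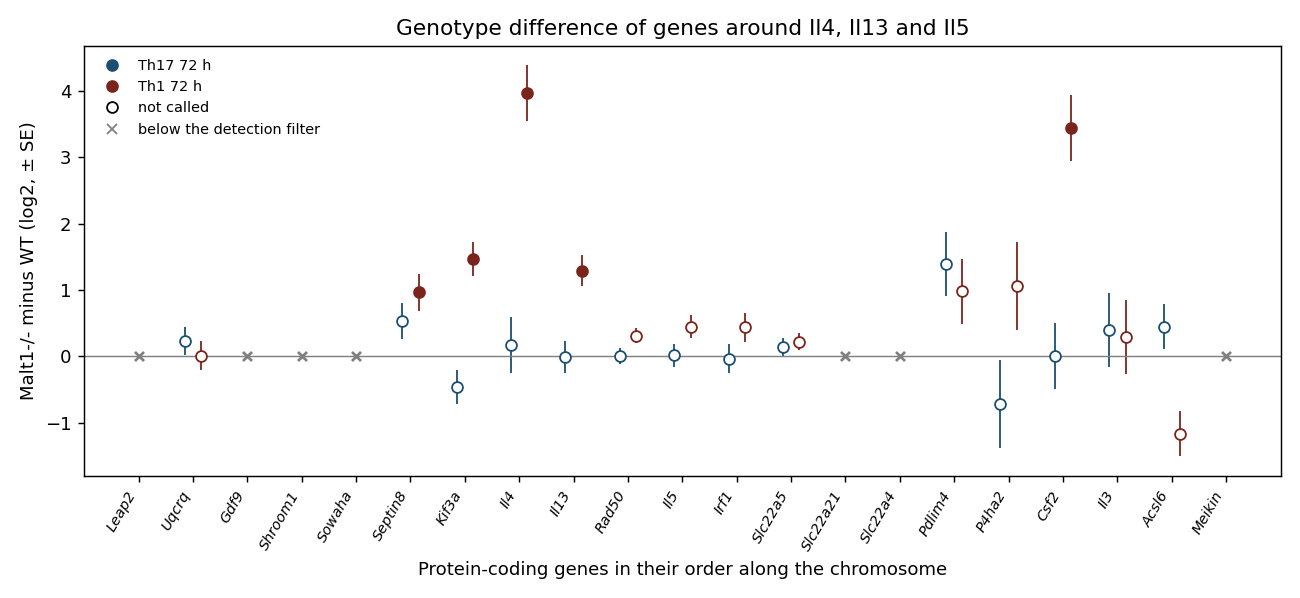
Malt1-/- minus WT difference (vertical axis, log2, bars give the SE) of the protein-coding genes around Il4, Il13 and Il5, in their order along chromosome 11 (horizontal axis, not to scale), in Th17 and Th1 cells at 72 h; filled points have an adjusted p under 0.05 and crosses mark genes below the detection filter. Septin8, Kif3a, Il4, Il13 and Csf2 are the 5 filled points, all in Th1 cells.

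Genes around the cytokines and Gata3 were read in 6 lists. Among Th2 cytokines and soluble products 2 of 5 tested rose in Malt1-/- Th1 cells at 72 h, Il4 and Il13, while 1.85% of all genes were called higher, with a median of 1.29 against -0.000362 over all genes. Il10, an anti-inflammatory cytokine gene of this list, stood the other way in Th1 cells and was not called there. It averaged 6.87 in Malt1-/- and 8.68 in WT Th1 cells at 72 h, and 5.46 and 6.60 at 48 h. In Th17 cells Il10 fell by 2.41 ± 0.61 at 72 h (adjusted p = 0.0217) and fell by 2.83 ± 0.61 at 48 h (adjusted p = 0.00627, limma), where 2.97% of all genes were called lower. Of 10 tested genes of interleukin 4 receptor signalling, Jak2, a kinase of cytokine receptors, rose in Th1 cells at 72 h (0.92 ± 0.18, adjusted p = 0.00192, limma). None was called in Th1 cells at 48 h, with 2 at an unadjusted p under 0.05. Over all genes 1.85% were called higher in Th1 cells at 72 h, and 0.783% higher and 0.606% lower at 48 h. Jak1, the kinase that Il4ra carries, rose in Th17 cells at 48 h (1.20 ± 0.37, adjusted p = 0.047), and Stat6 itself differed by 0.44 in Th1 cells at 72 h (adjusted p = 0.183). The list's median was 0.35 in Th1 cells at 72 h and -0.17 in Th17 cells at 72 h, against 0.04 over all genes in those Th17 cells.

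Of 14 tested regulators of Il4 and Gata3, 2 rose in Th1 cells at 72 h, Gata3 and Rbpj, the DNA-binding partner of Notch (0.96 ± 0.26, adjusted p = 0.0338), while 1.85% of all genes were called higher. Gata3 is 1 of the 5 genes described above. Maf, an activator of Il4, was detected on no Th1 array of either genotype, and Junb differed by -0.28 and Irf4 by 0.21. In Th17 cells Satb1, a chromatin organiser, fell by 0.94 ± 0.22 at 72 h (adjusted p = 0.012) and fell by 0.83 ± 0.22 at 48 h (adjusted p = 0.0228), and Junb fell by 0.69 ± 0.18 at 48 h (adjusted p = 0.023). Of 8 tested repressors of Il4 or Gata3, among them Tbx21, which encodes T-bet, 0 were called in each of the 4 genotype tests by limma. At an unadjusted p under 0.05 there were 3 in Th1 cells at 72 h and 1 in each of the other tests. Over all genes 0.783% to 3.41% were called higher in these tests and 0.606% to 2.97% lower, so 0 of 8 is near that share. Tbx21 averaged 9.93 in Malt1-/- Th1 cells and 9.65 in WT Th1 cells at 72 h, a difference of 0.28 (adjusted p = 0.634). Ifng, the Th1 cytokine, averaged 14.37 in Malt1-/- Th1 cells and 14.50 in WT Th1 cells at 72 h (difference -0.13, adjusted p = 0.929).

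Among Th2 surface receptors 4 of 9 were tested. Ccr8, a chemokine receptor of Th2 and regulatory T cells, rose in Malt1-/- Th1 cells at 72 h by 2.50 ± 0.49, or 5.65-fold (adjusted p = 0.00174), where it averaged 9.02 in Malt1-/- and 6.52 in WT Th1 cells. At 48 h it was on the lower side in Malt1-/- Th1 cells, a difference of -1.21 that did not pass (adjusted p = 0.274), and the effect at 72 h minus that at 48 h was 3.71 ± 0.70 (adjusted p = 0.00926, limma). At 48 h Ccr4, which like Ccr8 encodes a chemokine receptor, stood at least 1.52-fold higher in Malt1-/- Th1 cells, detected on 5 of 5 arrays against 0 of 5 (adjusted p = 0.0122). None of the 4 was called in Th17 cells by limma at either time, and 0 had an unadjusted p under 0.05. Over all genes 2.89% were called higher and 1.53% lower there at 72 h, and 3.41% higher and 2.97% lower at 48 h. The receptors Ptgdr2 and Ccr3 were detected on 0 of 40 arrays.

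**Figure D5:**
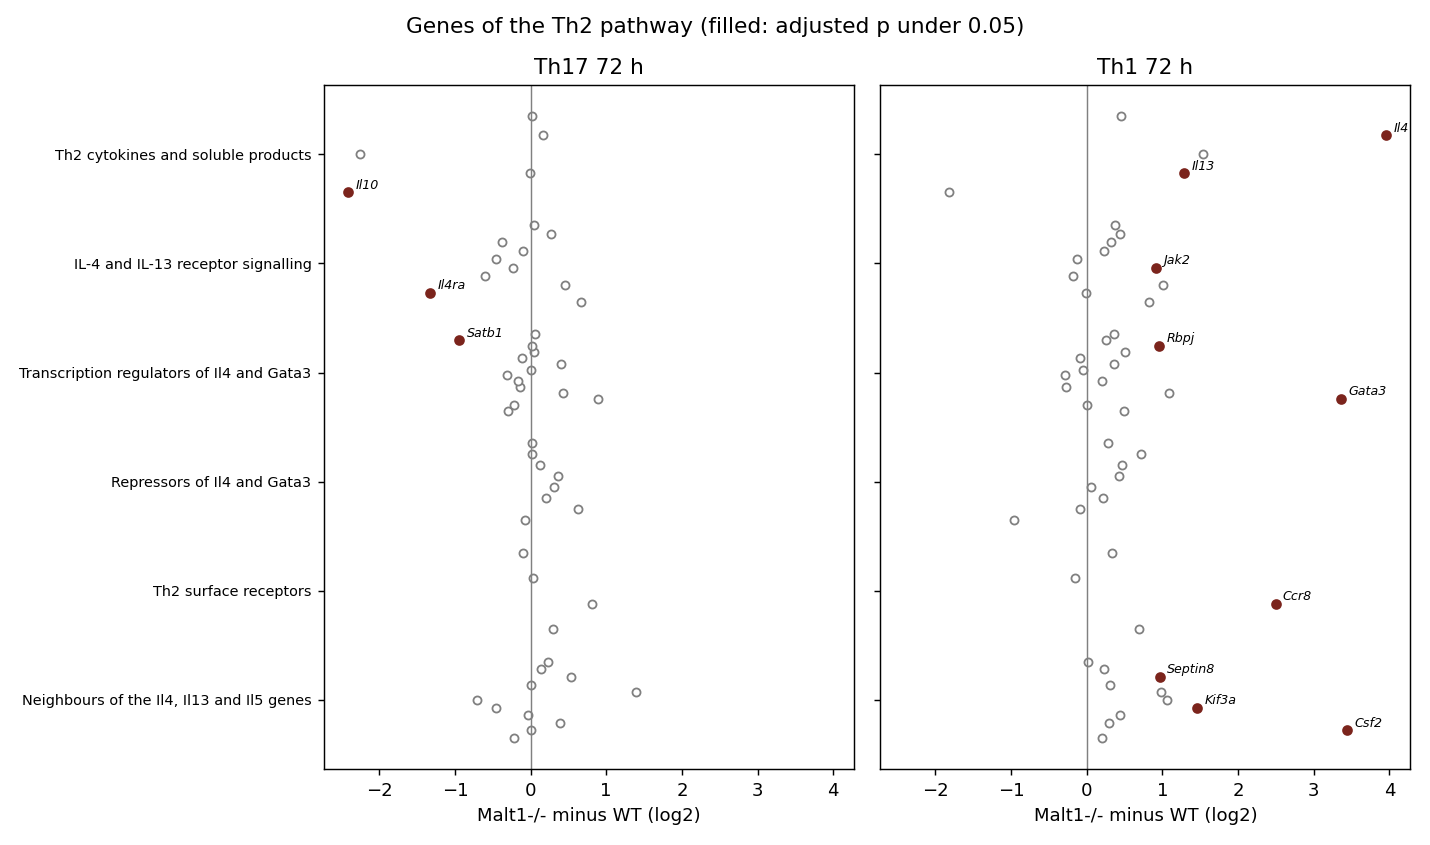
Malt1-/- minus WT difference (horizontal axes, log2) of each tested gene in the 6 lists of the Th2 pathway (vertical axis), in Th17 cells at 72 h and Th1 cells at 72 h; named filled points have an adjusted p under 0.05. In Th1 cells the filled points lie at or above 0.92, and in Th17 cells Il10, Il4ra and Satb1 lie below 0.

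Markers of other cells that make Th2 cytokines did not pass the test between genotypes. Of 8 markers of basophils and mast cells 4 were tested and 0 were called in each genotype test by limma, with at most 1 at an unadjusted p under 0.05. Their summed linear signal ran from 575 to 922 in Malt1-/- Th1 cells and 347 to 1422 in WT Th1 cells at 72 h, and from 983 to 1277 in Malt1-/- Th1 cells and 403 to 1390 in WT Th1 cells at 48 h. At 72 h Ms4a2, Mcpt8, Gata2 and Prss34 were detected on no Th1 array of either genotype. No eosinophil marker passed the filter, and 0 of the 2 tested markers of NKT and NK cells were called or had an unadjusted p under 0.05. Over all genes 0.783% to 3.41% were called higher in the genotype tests and 0.606% to 2.97% lower. With so few markers, 0 calls do not set them apart from all genes, and the share of such cells was not tested. In Th17 cells at 72 h 4 of 6 tested markers of neutrophils and monocytes rose without Malt1, S100a8 by at least 14.8-fold and S100a9 by at least 6.44-fold, with Lyz1 and Fcer1g, while 2.89% of all genes were called higher. Their sums ran from 561 to 6169 in Malt1-/- Th17 cells and 212 to 357 in WT Th17 cells, Csf1r and Itgam were undetected in the Malt1-/- arrays, and their part in the fall of Il4ra was not tested. In Th1 cells 0 of the 6 were called, or had an unadjusted p under 0.05, at either time.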

How the data were processed

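RNA of 40 T cell samples was measured on bead arrays. The authors deposited the intensity of each probe without normalisation, and beside it a fraction that, per the file headers and its values, is 1 minus the detection p-value. The authors' deposited value table is in log2 units and equals the log2 quantile-normalised intensity centred on each probe's median (largest absolute difference 0.0149). It has no levels, so the intensities were used. Which software read the scans is not stated in the labels or headers.

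The neqc routine of limma 3.58.1 (R 4.3.3) corrected the background from the detection p-values, added an offset of 16, applied quantile normalisation and took log2. Probes with a detection p under 0.05 on at least 5 of 40 arrays were kept, 20739 of 45281. The platform annotation gave 1 symbol to 34885 probes and several to 18, and left 10378 unlisted. The probe with the highest mean stood for a gene, which left 10730 genes. All 5 genes passed, so no test outside the fit was needed. Linear models with 8 group means were fitted to the 40 arrays (lmFit, eBayes), for 16 comparisons, with Benjamini-Hochberg adjustment over all genes and a threshold of 0.05. Tests with arrays in common depend on each other. The fit was tested on simulated data. The number of arrays limits the precision.

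A gene detected on no array of a group has a fold given as "at least", against the lowest detected signal of each array. The genes named were the 5 genes, Malt1, the 5 genes most correlated with Il4 and with Gata3, and up to 4 called genes of each list in each genotype comparison. Stat6, Tbx21, Ifng, Maf, Junb, Irf4, Ptgdr2, Ccr3, Rad50, Il3, P4ha2, Acsl6 and the marker genes were named beside them after their values were seen. The 5 genes, the lists (Th2 cytokines and soluble products, receptor signalling, regulators, repressors, surface receptors, neighbours in the cluster) and the markers were chosen with earlier results of these data known. Promoters came from RefSeq. Replicate numbers did not pair arrays of different groups: over 140 pairs the median residual correlation was 0.0173 (-0.361 to 0.484), and no 2 arrays were identical. Alternatives were no background correction, median scaling, an offset of 50, the authors' table, other filters, all probes, separate fits, another variance prior, array weights, a replicate block and arrays left out.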

Additional observations from a re-analysis of the deposited data

Results flagged for a closer look

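With 5 arrays a group, a single array far from the other 4 is picked up by chance in about 1 group in 20, and 4 such arrays were found among the 5 genes in 8 groups. Gata3 in Malt1-/- Th17 cells at 48 h read 8.25 in replicate 1, against 6.22 to 6.70 in the rest. Gata3 in WT Th17 cells at 48 h read 6.43 in replicate 5, the only array of that group to detect it, against 4.66 to 4.77 in the others. Both belong to the comparison in which Gata3 rose, and the difference stayed between 1.42 and 2.11 without any single array. Il5 in WT Th1 cells at 72 h read 5.08 in replicate 5, against 4.57 to 4.70, all below detection. Il4ra in WT Th1 cells at 48 h read 5.13 in replicate 2, which did not detect it, against 6.06 to 6.42.

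The effect of Malt1 loss differed between lineages at 72 h for Il4, by -3.79 for Th17 minus Th1 (adjusted p = 0.000485, limma), and for Gata3, by -2.48 (adjusted p = 0.00838). Every Malt1-/- Th1 array stood above every WT Th1 array for both genes, while the Th17 arrays overlapped.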

How the results depend on the processing

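Of 944 values of the 5 genes under other settings, 916 kept their side of the threshold, 12 lost a call, 16 gained one and 0 called values reversed. These are not independent checks, since the authors' table nearly equals the setting without background correction. Filters, all probes, separate fits, the variance prior and the replicate block left each difference as it was, so they could not reverse one. Of the 916, 22 changed sign, all of them uncalled. With 1 array left out at a time the same counts were 984, 8, 8 and 0 of 1000, and 44 uncalled values changed sign. The number of the 5 genes called moved as follows, and the cause was not tested. Without background correction, and in the authors' table, it was 0 in place of 1 for Malt1-/- minus WT in Th17 cells at 48 h, 1 in place of 2 for Th17 minus Th1 in WT cells at 48 h (Il4 lost), and 2 in place of 0 for the effect at 72 h minus 48 h in Th1 cells, which was also 2 without the 10 arrays nearer to another group. For 72 h minus 48 h in WT Th17 cells it was 0 in place of 1 with median scaling, with an offset of 50 and with only the groups compared, and without background correction and in the authors' table it stayed at 1 with a different gene, Il4ra for Gata3. It was 1 in place of 2 for Malt1-/- minus WT in Th1 cells at 48 h with only the groups compared. Array weights gave 1 in place of 0 for the effect in Th17 minus Th1 at 48 h (Il4) and for 72 h minus 48 h in Malt1-/- Th17 cells (Il5). With 1 array left out the count ran from 1 to 2 for Th17 minus Th1 in WT cells at 48 h and from 0 to 1 for 72 h minus 48 h in WT Th17 cells, with 0 reached on leaving out WT Th17 replicates 1, 2, 3 or 4 at 48 h or replicates 1 or 4 at 72 h. The lower effect on Il13 in Th17 cells at 72 h was called with an offset of 50 (-0.99, adjusted p = 0.0424). It was also called without single arrays such as Malt1-/- Th1 replicate 2 at 72 h (-1.47, adjusted p = 0.0139). Only the groups compared lost Il13 for Malt1-/- minus WT in Th1 cells at 72 h (adjusted p = 0.0913, limma). Without the 10 arrays Il4ra was lost for Th17 minus Th1 in WT cells at 72 h (adjusted p = 0.0603). Without Malt1-/- Th1 replicate 2 at 72 h Il5 was gained for Th17 minus Th1 in Malt1-/- cells at 72 h (adjusted p = 0.0403).

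The replicate block changed 1 call by limma, Il4ra in Malt1-/- cells at 48 h for Th17 minus Th1 (0.75, adjusted p = 0.0423, against 0.0564). Median scaling, a stricter detection filter, only the groups compared and array weights gained that call too. So did leaving out Malt1-/- Th1 replicate 3 at 48 h. The block left Il4 in Th1 cells at 72 h at 3.96 (adjusted p = 1.66e-07). The numbers of the labels did not pair the arrays, since 6 of 40 lay closest to arrays of their own number.

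Counts over all genes depended more on the setting. In the order Th17 at 72 h, Th17 at 48 h, Th1 at 72 h and Th1 at 48 h, 474, 685, 297 and 149 genes were called between genotypes. Median scaling gave 131, 580, 141 and 62, with 541 higher and 39 lower in Th17 cells at 48 h in place of 366 and 319, 118 and 23 in Th1 cells at 72 h in place of 198 and 99, 24 and 38 in Th1 cells at 48 h in place of 84 and 65, and 101 and 30 in Th17 cells at 72 h in place of 310 and 164. It moved the median of all genes to 0.17 in Th17 cells at 48 h, where Gata3 differed by 1.81, and to 0.13 in Th17 cells at 72 h, where Il4ra differed by -1.27. Fits of only the groups compared gave 58, 1164, 82 and 168, array weights 324, 2335, 402 and 400, and no detection filter 299, 440, 236 and 139. The fit without the 10 arrays gave 2287, 1751, 611 and 351. Those arrays were picked for lying nearer to another group in these same signals, so leaving them out can narrow the spread. Slides could not be used as a block because the headers name none. Il5, and Gata3 in WT Th17 cells at 48 h, are limited by signals near the background.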
